A study of Homo sapiens with 13 samples.

Results

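The POU class III and class IV genes were examined in the chromatin accessibility atlases of H82 and H146, both established lines of human small cell lung cancer (SCLC). The members are POU3F1, POU3F2, POU3F3, POU3F4, POU4F1, POU4F2 and POU4F3, which are 7 of the 20033 protein-coding genes of GENCODE release 44 on 24 chromosomes, and all 7 were found in the annotation. They were taken by name as gene classes, although earlier results of these data were known when they were chosen. Every accessible region of either atlas was collected over 3 windows: the 1 kb to either side of the transcription start site (TSS), the gene body, and the gene body with 100 kb to either side. H82 is a line of the NEUROD1-driven subtype SCLC-N and H146 a line of another neuroendocrine subtype, both labelled WT in genotype. Cells were left untreated or were given FHD-286, a drug that inhibits SMARCA4 and SMARCA2 (the ATPases of SWI/SNF remodellers), at 100 nM over 14 days with renewal every 48 h. Libraries numbered 3 untreated and 3 treated for H82, and 4 untreated and 3 treated for H146.

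Each atlas is 1 list of regions per line that joins the untreated and the treated libraries. Each region therefore holds a call from at least 1 library of its line under either condition. Calls within 500 bp of each other had been merged, so a wide region can join calls of different libraries and hold bases called in none. No region carries a height, a read count or a library. The values below therefore have no replicate spread and no test, and untreated and treated cells could not be set against each other. The depth of the libraries is unknown, and the number and depth of libraries and the DNA copies of each line cannot be told apart from the line itself. H82 had 206927 regions covering 5.41% of the genome, and H146 had 174093 covering 4.49%, a difference of 0.27 on the log2 scale that touches every ratio of covered share given here. As a check of the labels, the NEUROD1 TSS lay in a region of 7865 bp in H82 and in no region of H146. Of 7 SCLC markers listed, 6 had a region at the TSS in both H82 and H146, and NEUROD1 was the exception. Of the leukocyte markers PTPRC and CD3E, neither line had a region at the TSS, but regions stood at the TSS of PECAM1, COL1A1 and SFTPC in both lines and of KRT5 in H146 alone.

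POU proteins are transcription factors that bind DNA through a POU-specific domain and a POU homeodomain joined by a linker, and the octamer word is their classical target. Class III factors are brain factors: POU3F2 (BRN2) and POU3F3 (BRN1) act in cortical progenitors and neurons, POU3F1 (OCT6) acts in Schwann cells, and POU3F4 (BRN4) acts in the inner ear, where its loss causes X-linked deafness. Class IV factors specify sensory neurons, with POU4F1 (BRN3A) known from sensory ganglia, POU4F2 (BRN3B) from retinal ganglion cells and POU4F3 (BRN3C) from hair cells of the inner ear. The class III genes are short genes with coding sequence in a single exon, and the class IV genes have 2 exons. POU3F2 and POU4F1 are known from neuroendocrine tumours, and POU3F2 is used with other factors to turn fibroblasts into neurons. In the regions, 7 words were searched on both strands: the E-box CAGATG, read by NEUROD1, the E-box CAGCTG, the POU octamer ATGCAAAT, the POU3-type word ATGAATAT, the POU4-type word TAATTAAT, the OTX2 word TAATCC and the FOXA word TGTTTAC.

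At the TSS the members differed between the lines at 1 gene, POU3F3. A region lay within 1 kb of the TSS of 6 of 7 members in H82, beside 80.5% of all protein-coding genes, and of 5 of 7 in H146, beside 77.2% of all genes. POU3F3 had such a region in H82 and not in H146, which was so for 5.1% of all genes. POU3F4 had none in either line, as had 17.7% of all genes. In CpG these promoters lay above the all-gene median, some of them by little. The observed over expected CpG ratio within 1 kb of the TSS ran from 0.658 at POU4F3 to 0.985 at POU3F1, against a median of 0.613. POU3F4, with no region there, stood at 0.681. A ratio as high as that of POU4F3 was found at 42.0% of all genes, and one as high as that of POU3F4 at 37.5%.

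**Figure D1:**
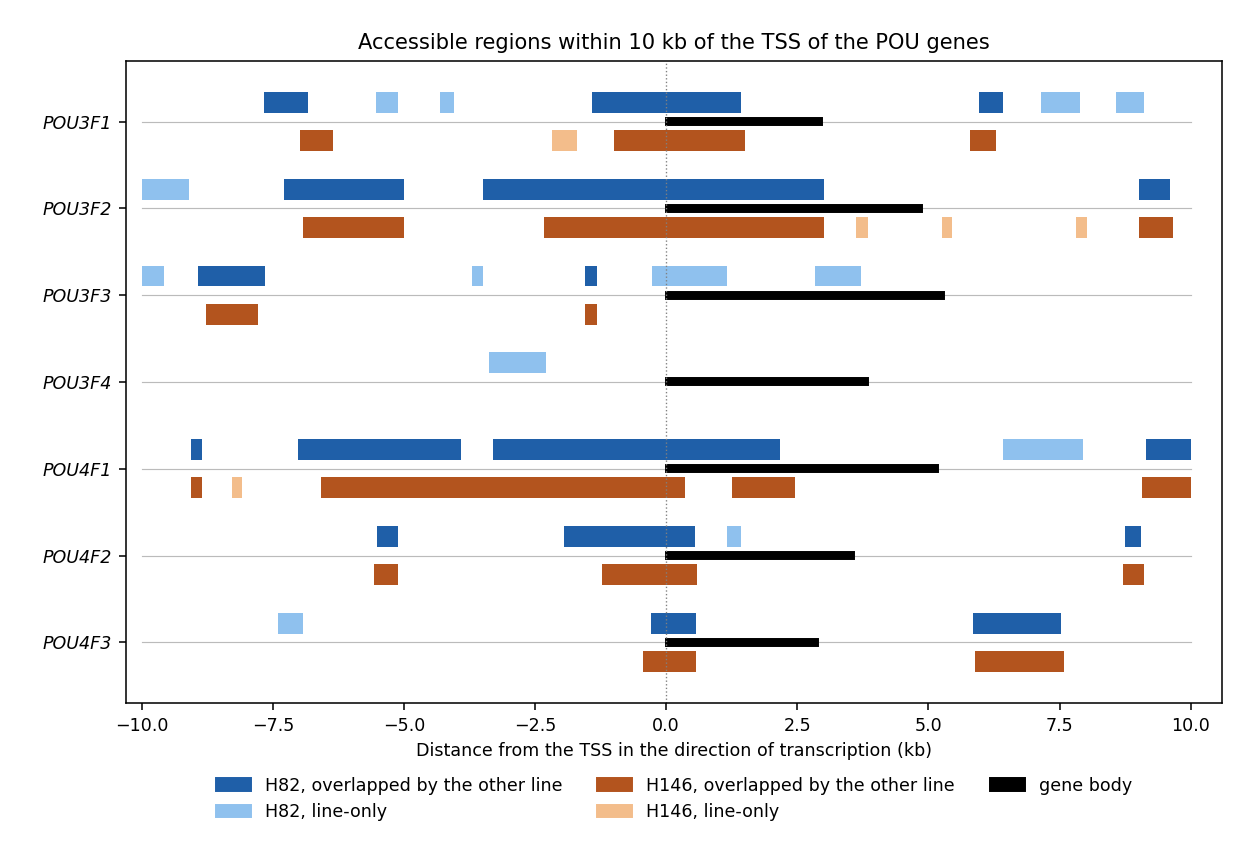
Accessible regions of H82 (upper blocks) and H146 (lower blocks) within 10 kb of the TSS of each member, by distance in kb in the direction of transcription. Dark blocks overlap a region of the other line, pale blocks do not, and black bars are gene bodies. POU3F3 has an H82 block of 1430 bp over its TSS and none in H146, POU3F4 has a single H82 block upstream, and the single H146 block of 6936 bp at POU4F1 spans 2 blocks of H82.

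POU3F3 (ENSG00000198914.5, chr2:104853287-104858574, plus strand) was the member with the clearest difference at the gene itself. In H82 a region of 1430 bp ran from 273 bp before the TSS to 1156 bp after it, and a second one of 869 bp lay 2844 to 3712 bp after the TSS over the coding sequence. Together they covered 38.3% of the gene body. In H146 there was no region over the gene body or within 1 kb of the TSS. The H82 region at the TSS also holds the start that RefSeq gives, 828 bp further in, and H146 had no region within 1 kb of that start either. The bases just before the GENCODE 5′ end, which lie wholly in the H82 region and outside every H146 region, are shown first. The second run is the nearest upstream region, of 220 bp, at 1542 to 1323 bp before the TSS, whose bounds were the same to the base in both lines, so that an open site of H146 stood this close to a TSS that was not listed. Both runs are read from hg38 on the plus strand. The first overlaps an exon of PANTR1, a lncRNA gene upstream, and holds none of the 7 words searched. The second holds 1 of them, the FOXA word TGTTTAC, which is in capitals and on the opposite strand. That word was found in 10.7% of all H82 regions and 13.6% of all H146 regions.
POU3F3 before the 5′ end, chr2:104853037-104853286: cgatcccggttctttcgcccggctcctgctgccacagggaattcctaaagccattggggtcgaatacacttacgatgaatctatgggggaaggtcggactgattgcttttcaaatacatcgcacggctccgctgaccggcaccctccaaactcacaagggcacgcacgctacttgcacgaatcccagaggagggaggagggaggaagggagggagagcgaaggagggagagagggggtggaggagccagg
POU3F3 region of both lines, chr2:104851745-104851964: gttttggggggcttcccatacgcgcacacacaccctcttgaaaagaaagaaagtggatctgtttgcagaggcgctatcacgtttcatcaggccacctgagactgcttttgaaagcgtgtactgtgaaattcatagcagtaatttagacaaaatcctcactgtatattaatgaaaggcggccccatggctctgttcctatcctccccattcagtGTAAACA

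Around POU3F3 the lines were much closer in number than in width. Within 100 kb of the gene body H82 had 11 regions and H146 had 12, and 5 of each overlapped the other line. The median width was 596 bp in H82 and 242.5 bp in H146, and 4 of the 12 H146 regions were 200 bp wide, the narrowest width listed near any member. H82 regions covered 3.61% of the window and H146 regions 2.29%, a 1.58-fold difference. The excess lay close to the gene: within 10 kb of the gene body the shares were 19.8% and 6.38%, whereas from 50 to 100 kb downstream H146 had 4 regions covering 2.42% and H82 had 2 covering 0.934%. The widest H146 region of this locus, 994 bp at 8768 to 7775 bp upstream in PANTR1, lay inside an H82 region of 1281 bp. Of the bases in H82 regions here 32.5% were also in H146 regions, and of those in H146 regions 51.2% were also in H82 regions.

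POU3F4 (ENSG00000196767.9, chrX:83508290-83512127, plus strand) had no region over its TSS or gene body in either line. The closest region of either line was an H82 region of 1077 bp at 3371 to 2295 bp before the TSS, with no counterpart in H146, whose closest region lay 34095 bp after the TSS. The 100-kb window held 8 regions in H82, with widths of 251 to 1077 bp, and 3 in H146, of 251, 319 and 602 bp. All 3 H146 regions overlapped H82 regions, 2 of them with bounds equal to the base, and 97.3% of the bases in H146 regions were also in H82 regions. Regions took up 2.27% of the window in H82 and 0.575% in H146, a 3.94-fold difference (1.98 on the log2 scale). Among the 19829 genes with a region in both lines within 100 kb, 2.25% had a log2 ratio as high. The difference rests on 5 H82-only regions. The wider surroundings did not move with it: over the 1 Mb on either side beyond that window, it was 1.20% for H82 and 1.42% for H146.

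The first run below is the 250 bases before the POU3F4 TSS, absent from both atlases, and the second is the stretch of the H82-only region where 2 of the searched words fall closest together, 2994 to 2745 bp before the TSS. Both are on the plus strand of hg38. Capitals mark CAGATG, the E-box form of the NEUROD1 type, and ATGAATAT, a word of the POU3 type, each present once in the second run and on the opposite strand. CAGATG was present in 44.6% of all H82 regions and ATGAATAT in 2.20%.
POU3F4 before the TSS, chrX:83508040-83508289: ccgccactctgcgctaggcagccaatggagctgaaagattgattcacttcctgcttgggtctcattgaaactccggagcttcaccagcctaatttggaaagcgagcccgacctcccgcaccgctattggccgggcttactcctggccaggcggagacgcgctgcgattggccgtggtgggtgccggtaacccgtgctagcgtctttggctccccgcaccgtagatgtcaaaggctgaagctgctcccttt
POU3F4 H82-only region, chrX:83505296-83505545: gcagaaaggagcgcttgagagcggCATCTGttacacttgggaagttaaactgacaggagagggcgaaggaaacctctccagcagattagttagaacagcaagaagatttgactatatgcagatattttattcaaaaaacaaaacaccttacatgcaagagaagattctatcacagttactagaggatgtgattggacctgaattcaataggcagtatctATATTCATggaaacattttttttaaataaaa

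POU3F1 (ENSG00000185668.8, chr1:38043829-38046793, minus strand) had the most regions of all members in H82, which listed 40 within 100 kb. H146 listed 19, as it did at POU4F1. Both atlases held 1 wide region over the TSS, of 2855 bp in H82 and 2490 bp in H146, which reached 1422 and 988 bp upstream and 1432 and 1501 bp downstream. Away from the TSS the lines parted: 27 of the 40 H82 regions had no H146 counterpart, against 6 of 19 in the other direction. H82 had a run of 7 regions from 89161 to 74603 bp upstream where H146 had none. The widest H82 region, 2964 bp at 15608 to 18571 bp downstream, enclosed an H146 region of 1205 bp. Regions of H82 covered 15.2% of the window and those of H146 7.42%, a 2.05-fold difference. Of the genes with a region in both lines within 100 kb, 12.5% had a log2 ratio as high. The H82 excess was shared with the surrounding chromosome. Over the 1 Mb on either side 8.16% was covered in H82 against 4.28% in H146, and relative to it the log2 ratio of POU3F1 went from 1.04 to 0.11. Of the other protein-coding genes with a TSS within 100 kb, INPP5B, a phosphoinositide phosphatase gene 99.7 kb away, had a TSS region in H82 alone, and SF3A3, FHL3 and UTP11 had one in both lines.

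A pair of regions about 7 kb upstream of POU3F1, inside the lncRNA gene MIR3659HG, showed how a region counted as shared can hold mostly different bases. The H82 region ran from 7664 to 6837 bp before the TSS and the H146 region from 6979 to 6360 bp, and the 2 overlapped by 143 bp of their 828 and 620 bp. The H82 region held 5 matches to CAGATG and none to the other words. At least 5 matches were present in 1.39% of all H82 regions, and in 0.358% of the 42468 that were 600 to 1100 bp wide. The region was picked for its count, so these shares do not measure how unusual it is. The H146 region held none of these but 1 match to the octamer ATGCAAAT and 1 to ATGAATAT, which overlap each other. The octamer was present in 4.09% of all H146 regions. The H82 run below, outside the H146 region, holds 4 of the 5 CAGATG matches, and the H146 run, outside the H82 region, holds the overlapping POU words. Both are on the minus strand, in the direction of POU3F1 transcription, and capitals mark these words.
POU3F1 H82 stretch, chr1:38054158-38054457: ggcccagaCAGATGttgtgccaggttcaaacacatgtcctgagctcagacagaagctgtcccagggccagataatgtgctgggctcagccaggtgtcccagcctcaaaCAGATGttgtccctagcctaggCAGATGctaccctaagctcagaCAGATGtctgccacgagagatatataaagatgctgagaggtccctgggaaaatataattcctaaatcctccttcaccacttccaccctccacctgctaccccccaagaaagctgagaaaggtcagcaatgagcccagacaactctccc
POU3F1 H146 stretch, chr1:38053221-38053420: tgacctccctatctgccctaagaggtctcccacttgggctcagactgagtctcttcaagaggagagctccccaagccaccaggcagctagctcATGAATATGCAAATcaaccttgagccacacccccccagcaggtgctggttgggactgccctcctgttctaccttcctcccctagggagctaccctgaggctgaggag

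POU3F2 (ENSG00000184486.10, chr6:98834574-98839458, plus strand) had a wide merged region at its TSS in both lines. The region over its TSS was 6513 bp wide in H82 and 5336 bp in H146, and among genes with a TSS region 3.19% in H82 and 3.68% in H146 had one at least as wide. Both regions ended at the same base, 3011 bp after the TSS. They differed at the upstream edge, 3501 bp before the TSS in H82 and 2324 bp in H146. H146 alone had 3 narrow regions further on, of 238, 203 and 200 bp, the first of them in the 3′ UTR and the others past the gene. The number within 100 kb was 9 in H82 and 11 in H146. In covered share H82 stood at 6.69% and H146 at 5.93%, a log2 difference of 0.17 that became -0.10 when each line was scaled to its genome-wide covered share. So the direction at POU3F2 depended on that scaling. Of the bases in regions, 72.1% of those in H82 and 81.2% of those in H146 were in regions of the other line too.

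Upstream of POU3F2 a second wide region, of 2296 bp in H82 and 1920 bp in H146, again ended at the same base in both lines, 5002 bp before the TSS. It holds the octamer, which no H82 region of any other member did. The stretch around it is given on the plus strand of hg38 with the octamer, here on the opposite strand, in capitals. The octamer was present in 3.58% of all H82 regions.
POU3F2 octamer stretch, chr6:98828873-98828992: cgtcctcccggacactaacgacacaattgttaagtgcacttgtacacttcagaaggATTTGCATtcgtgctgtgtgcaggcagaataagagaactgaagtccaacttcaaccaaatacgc

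**Figure D2:**
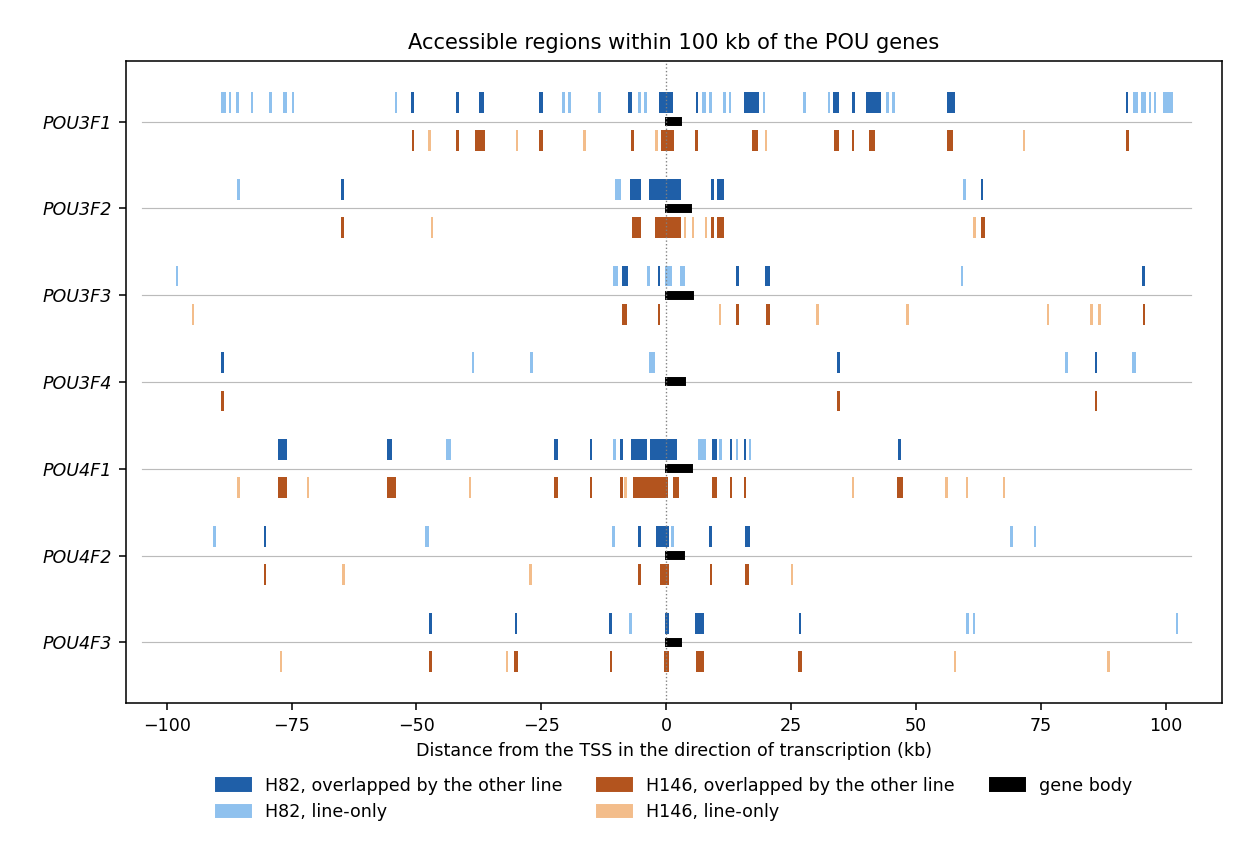
Accessible regions of H82 (upper blocks) and H146 (lower blocks) within 100 kb of each member's gene body, by distance from the TSS in kb in the direction of transcription, with regions under 0.5 kb drawn at 0.5 kb. Dark blocks overlap a region of the other line and pale ones do not. POU3F1 shows 40 H82 and 19 H146 blocks, and POU3F4 shows 8 and 3.

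POU4F1 (ENSG00000152192.8, chr13:78598362-78603552, minus strand) had the widest TSS region of the members in H146 and the next widest after POU3F2 in H82, and the lines cut the same upstream domain differently. In H146 a single region of 6936 bp reached from 6582 bp before the TSS to 353 bp after it, and 1.99% of genes with a TSS region in H146 had one as wide. H82 had 2 regions over the same stretch, of 3116 bp at 7030 to 3915 bp before the TSS and of 5473 bp from 3303 bp before it to 2169 bp after it. Within the gene the order turned: the H82 region covered 41.8% of the gene body, while H146 covered 29.9%, with a separate region of 1198 bp starting 1262 bp after the TSS. The covered shares within 100 kb were 8.97% in H82 and 8.85% in H146, 1.01-fold apart, from 17 and 19 regions. Scaled to the genome the log2 ratio was -0.25, so the direction here too depended on the scaling. OBI1, the other protein-coding gene with a TSS within 100 kb, was open at that TSS in H82 and H146.

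The 611 bp between the H82 regions upstream of POU4F1 were listed in H146 alone. They held 2 overlapping matches to TAATTAAT, a word of the POU4 type, and none to the other 6 words. Such a match was present in 2.92% of all H146 regions and 2.65% of all H82 regions. The H146 region as a whole held 4, and the other 2 lay in the H82 region of 3116 bp. Because regions within 500 bp of each other had been merged, the gap in H82 is just above the distance at which its regions would have been joined. The stretch of the gap with these matches is given on the minus strand, in the direction of POU4F1 transcription, with the overlapping matches as 1 run of capitals. It lies in the lncRNA gene OBI1-AS1, which is transcribed across POU4F1.
POU4F1 gap stretch, chr13:78606856-78607105: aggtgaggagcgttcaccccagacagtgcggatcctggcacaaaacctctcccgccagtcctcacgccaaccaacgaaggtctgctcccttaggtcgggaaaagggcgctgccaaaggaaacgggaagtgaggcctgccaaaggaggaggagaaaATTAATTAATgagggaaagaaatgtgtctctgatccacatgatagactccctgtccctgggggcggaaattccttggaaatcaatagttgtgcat

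POU4F2 (ENSG00000151615.3, chr4:146638893-146642474, plus strand) had 11 regions within 100 kb in H82 and 8 in H146. Its TSS region was 2495 bp wide in H82 and 1805 bp in H146, and again the difference lay upstream, where the edges were 1951 and 1225 bp before the TSS, while the downstream edges were 543 and 579 bp after it. None of the 7 words was found in the TSS region of either line. H82 alone had a region of 282 bp in the coding sequence. Covered were 3.33% of the window by H82 and 2.28% by H146, a 1.46-fold difference, and the log2 ratio of 0.55 was 0.28 after scaling to the genome. No other protein-coding TSS lay within 100 kb, the nearest being that of SLC10A7 at 117 kb.

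POU4F3 (ENSG00000091010.6, chr5:146338839-146341728, plus strand) was the member with a lower covered share in H82. Its TSS regions were the narrowest of those listed, 850 bp in H82 and 998 bp in H146, and 86.9% and 82.5% of genes with a TSS region had one as wide. They shared the downstream edge, 563 bp after the TSS, and the upstream edge was 286 bp before it in H82 and 434 bp in H146. The widest region in both lines lay past the gene, 1666 bp in H82 and 1697 bp in H146, with 1635 bp in common. Each line listed 10 regions within 100 kb, and 6 of each overlapped the other line. Over this window H82 covered 2.66% and H146 3.15% (log2 ratio -0.24), whereas within 10 kb of the gene body it was 13.0% and 11.8%. The regions upstream of POU4F3 lie in introns of ENSG00000275740, a readthrough gene that overlaps it, apart from 1 H146 region in coding sequence.

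A small H82-only cluster lay about 60 kb downstream of POU4F3, and its wider region, of 493 bp, held 3 matches to CAGATG. It is shown, on the plus strand with these matches in capitals, because no other H82-only region of a member held more of them. The region was picked for its count, and the share of all H82 regions with as many was not computed. Over all H82 regions of the members CAGATG was found 0.951 times per kb, beside 0.932 over all regions of the line.
POU4F3 H82-only stretch, chr5:146400268-146400517: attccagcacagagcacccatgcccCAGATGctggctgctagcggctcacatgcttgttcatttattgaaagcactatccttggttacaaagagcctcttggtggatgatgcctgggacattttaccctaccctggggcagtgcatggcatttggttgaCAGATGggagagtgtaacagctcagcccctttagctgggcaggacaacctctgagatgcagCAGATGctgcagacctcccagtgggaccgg

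Side by side, the covered share within 100 kb was higher in H82 for 6 of 7 members, beside 65.1% of all protein-coding genes. It was at least 2-fold higher in H82 for 2 members, POU3F1 and POU3F4, beside 13.9% of all genes, and at least 2-fold higher in H146 for 0 members, beside 0.879% of all genes. The median log2 ratio of the 7 members was 0.55. That of the 19829 genes with a region in both lines was 0.20 (interquartile range -0.12 to 0.65). Class III members spanned 0.17 to 1.98 and class IV members -0.24 to 0.55 on this scale, so the ranges overlapped. Region number gave another picture. It was higher in H82 for 3 members (POU3F1, POU3F4 and POU4F2), beside 65.6% of all genes, and higher in H146 for 3 (POU3F2, POU3F3 and POU4F1), beside 27.8% of all genes, with POU4F3 equal. As a share of the regions listed by either line, H82 regions made up from 45.0% at POU3F2 (exact Clopper-Pearson 95% interval 23.1 to 68.5%) to 72.7% at POU3F4 (39.0 to 94.0%). At POU3F1 it was 67.8% (54.4 to 79.4%). Over the whole atlases H82 regions made up 54.3%, which lies just under the lower bound at POU3F1 and within the interval of each of the other 6 members. These intervals cover counting error only and take regions as independent, although an overlapping pair is counted in both lines, so they are no test.

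**Figure D3:**
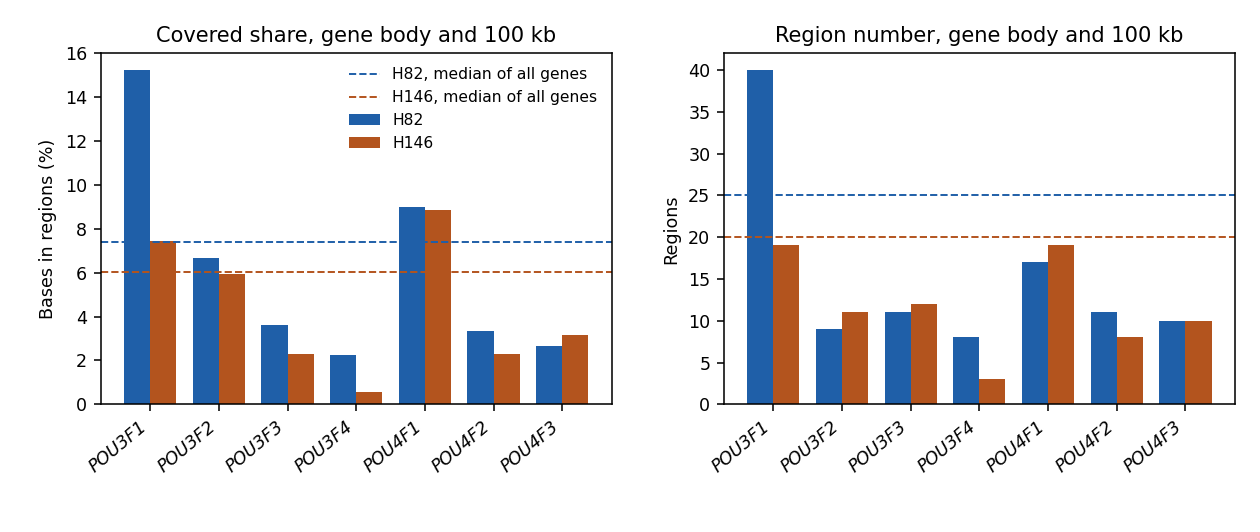
Covered share in percent (left) and number of regions (right) over each member's gene body and 100 kb to either side, 1 bar per line, with dashed lines at the medians over all 20033 protein-coding genes (7.40% and 6.04%, 25 and 20 regions, for H82 and H146). POU3F1 and POU4F1 lie above both medians of covered share, and the other members lie below the medians, by a small margin at POU3F2. Longer genes have wider windows, for which the region number is not corrected.

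Most members lay below the all-gene medians in both number and covered share. The all-gene medians were 25 regions in H82 and 20 in H146, and only POU3F1 in H82 was above its line's median in number. The window grows with gene length, and the members' gene bodies are short, at 2890 bp (POU4F3) to 5288 bp (POU3F3). Their numbers are therefore not set against those of longer genes at equal window size. The covered share is taken per base of the window. In covered share POU3F1 and POU4F1 were above the median of all genes in both lines. At POU3F4 97.1% of all genes had a covered share as high or higher in H146. The nearest TSS of another protein-coding gene was 37.5 kb away at POU3F1 and 55.6 kb away at POU4F1, and 108 to 353 kb away at the other members.

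**Figure D4:**
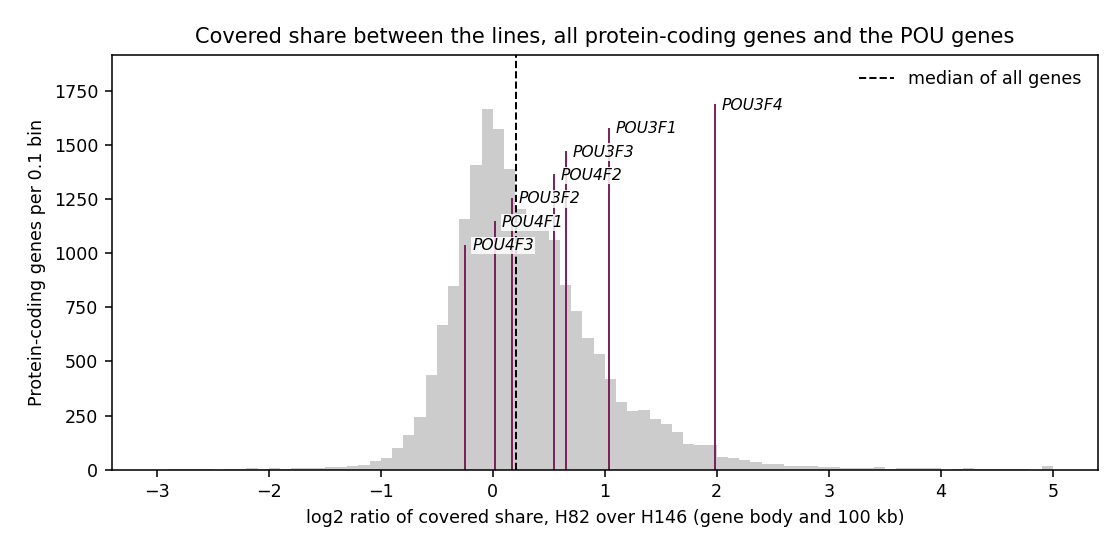
Number of protein-coding genes per 0.1 bin of the log2 ratio of covered share, H82 over H146, for the 19829 genes with a region in both lines within 100 kb, with a vertical line at each member and a dashed line at the all-gene median of 0.20. The outermost bins also hold genes beyond the axis, and the heights of the member lines carry no value. POU4F3 lies at -0.24 and POU3F4 at 1.98.

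In all, 106 H82 and 82 H146 regions lay within 100 kb of a member, and 49 of each overlapped the other line, which is 46.2% of the H82 regions and 59.8% of the H146 regions. Over the whole atlases these shares were 59.3% and 70.5%. Of the regions within 10 kb of a member's TSS, 17 of 30 in H82 (56.7%) and 17 of 22 in H146 (77.3%) overlapped the other line. Of those further away, 32 of 76 (42.1%) and 32 of 60 (53.3%) did. The same split was seen over all 20033 protein-coding genes, each region counted once for every gene it lay near: 69.3% of H82 and 81.7% of H146 regions overlapped the other line within 10 kb of the TSS, and 60.2% and 74.5% further away. Overlapping regions were wider, with medians of 596 bp against 421 bp for line-only regions in H82, and 734 bp against 314 bp in H146. Width was near that of all regions of the same kind (610 and 377 bp in H82, 662 and 315 bp in H146). By their centres, 38 of the H82 regions and 33 of the H146 regions lay in lncRNA genes, 42 and 28 between genes, and 8 and 7 in coding sequence or UTRs.

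Words that SCLC factors read were counted as exact matches on both strands, and a match is a description, not a binding site. Over the members' regions CAGATG was found 0.951 times per kb in H82 and 0.690 times in H146, beside 0.932 and 0.807 over all regions of each line. CAGCTG, the other E-box form, was found 0.722 and 0.754 times per kb, beside 0.823 and 0.826. The OTX2 word TAATCC was found 0.447 and 0.321 times per kb, beside 0.680 and 0.416, and TGTTTAC 0.126 and 0.193 times, beside 0.151 and 0.192. The POU words were rare. The octamer was found 1 time in H82 and 2 times in H146, ATGAATAT 2 and 1 times, and TAATTAAT 4 and 6 times. These counts are too small to set the lines apart. Of the 250 bases before the RefSeq start of the 7 members, 1 held any of the 7 words, a CAGCTG at POU4F1, and CAGCTG was present in 14.0% of the 35116 promoters of that length.

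Genes that work with these factors were read in the same way. Of all protein-coding genes 80.5% had a TSS region in H82 and 77.2% in H146, with 5.1% in H82 alone and 17.7% in neither. A covered share at least 2-fold higher in H82 was seen at 13.9% of all genes. Of 8 partners and targets of class III factors, 7 were open at the TSS in both lines and SOX10 in neither. The covered share within 100 kb was at least 2-fold higher in H82 at SOX10 (2.45-fold), a glial and neural crest regulator, and at MITF (2.66-fold), the melanocyte regulator. The median log2 ratio of the 8 was 0.27. Of 14 partners and targets of class IV factors, 11 were open at the TSS in both lines. RUNX1 and TLX3, both regulators of sensory neuron identity, had regions of 200 and 330 bp at the GENCODE 5′ end in H82 alone. For RUNX1 that end is chr21:36004667, and no other start of the gene was read for this list. A covered share at least 2-fold higher in H82 was seen at NTRK3 (4.99-fold), the receptor for neurotrophin 3, and at LHX3 (2.09-fold). ISL1, which acts beside POU4F1 in sensory neurons, had a ratio of 0.687 and was open at the TSS in both. The median log2 ratio of the 14 was 0.11, and 0.20 was that of all genes with a region in both lines. NEUROD1 was the SCLC marker with a 2-fold difference (2.17-fold).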

How the data were processed

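ATAC-seq had been carried out on H82 and H146 cells, cryopreserved before use, untreated or given FHD-286. Per the methods of the study, reads were trimmed with Trim Galore 0.4.4, aligned to hg38 with bowtie2 2.3.4 and cleared of reads with the same start and orientation by Picard, and regions were called per sample with MACS2, filtered against the blacklist and merged within 500 bp. The deposited values used here are the starts (counted from 0) and ends in bp of the 2 atlases merged by the authors. These hold 0 columns of per-sample values. The read counts and DESeq2 test of the authors were not used here, and the planned test of FHD-286 on counts was not run. In H146, 3 controls had been sequenced in 1 batch and the other control with the 3 treated samples. The labels do not say which control that was. Whether aligned ends were shifted for the Tn5 cut is not given in the sources used here.

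Positions are given 1-based. The annotation was GENCODE release 44 on hg38, and each gene's 5′ end served as its TSS. Mitochondrial regions, 1 per line, were left out. A region counted in a window when it overlapped it by 1 bp, and as shared when it overlapped the other line by 1 bp. The covered share is the percent of bases of a window that lie in regions, and a 2-fold ratio was called. Sequences were read from the hg38 reference, and RefSeq starts and promoters (GRCh38.p14, 250 bases upstream used) matched all 7 members. The counting was tested on simulated regions. Software was numpy 2.4.6, scipy 1.17.1 and matplotlib 3.10.9. Named were all members, the other protein-coding genes with a TSS within 100 kb, and, from the gene lists, genes with a TSS region in 1 line or a 2-fold ratio, at most 8 per list; some genes of the lists are counted but not reported here by name. ISL1 and the sequences shown were chosen after their values were seen. Members and lists were chosen with earlier results of these data known. Alternatives were other windows and TSS definitions, regions of at least 500 bp, leaving out promoters of other genes, an overlap of 50%, the share of regions with a word, and scaling to the covered share or region number of the genome or of the surrounding 1 Mb.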

Additional observations from a re-analysis of the deposited data

How the results depend on the processing

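No paired analysis was possible because the atlases hold no value per library, although the labels number the replicates of each group alike. For the same reason no library could be left out. Scaling to the genome raised the number of members with a higher covered share in H146 from 1 to 3, as did scaling to the surrounding 1 Mb, and either lowered the number with a 2-fold higher share in H82 from 2 to 1. POU3F1 dropped out in both cases, and POU3F2 and POU4F1 changed direction. Within 50 kb and within 10 kb the 2-fold number stayed at 2, but POU3F3 took the place of POU3F1. The log2 ratio was 1.01 at POU3F3 and 0.65 at POU3F1 within 50 kb, and 1.64 and 0.79 within 10 kb. Among regions of at least 500 bp the 2-fold number was 3, with POU3F3 added at a log2 ratio of 1.36. Within 10 kb of the gene body 0 members had a higher covered share in H146. Region number was higher in H82 for 3 members within 100 kb, for 5 within 50 kb and for 6 within 10 kb. It was higher in H146 for 3 within 100 kb and for 1 within 50 kb, within 10 kb and among regions of at least 500 bp. After scaling to the regions of the genome it was higher in H146 for 4. It was 2-fold higher in H82 for 2 members, for 1 within 50 kb or after that scaling, and for 3 among regions of at least 500 bp, with POU3F3 added. The cause of these shifts was not tested. Counts of members with a TSS region moved by at most 1: with windows of 5 or 10 kb they were 7 in H82 and 6 in H146, POU3F4 being then the member listed in H82 alone. Of the regions, 40 of each line were shared with an overlap of 50% of both, in place of 49. In total 42 alternative values for these counts were within 1.5 times the reported value and 12 were not. For single members, the log2 ratio changed sign in 5 of 41 alternative values of covered share (POU3F2, POU4F1 and POU4F3) and in 5 of 27 of region number (POU3F3 and POU4F1). At POU3F3 the log2 ratio of covered share was 1.64 within 10 kb against 0.66. At POU3F1 it was 0.11 relative to its surroundings against 1.04.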

Other observations

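Of 9 POU genes of other classes, 4 had a TSS region in both lines, 1 in H82 alone, 1 in H146 alone and 3 in neither. Over all genes 5.1% had one in H82 alone and 17.7% in neither. POU2F3, the regulator of tuft cells that marks a further SCLC subtype, had a TSS region of 641 bp in H82 and of 2762 bp in H146, and its covered share within 100 kb was 11.4% in H82 and 15.9% in H146. POU2F2, the B cell octamer factor, had a TSS region of 665 bp in H146 alone. POU5F1B was covered to 100% in H82 by a single region of 527244 bp and to 4.43% in H146.

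Regions with the same bounds to the base in both lines numbered 8 near the members, and 3 of them were 200 bp wide. They made up 7.55% of the members' H82 and 9.76% of their H146 regions. Whether regions of the lines were called and merged apart from each other is not given in the sources used here. Over the whole atlases 19180 regions had the same bounds, 9.27% of H82 and 11.0% of H146 regions.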
